A study of Mus musculus with 32 samples.

Results

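Genes of the extracellular matrix and of hepatic stellate cells were followed in mouse livers that had lost Gclc: the fibrillar collagen genes Col1a1, Col1a2 and Col3a1, the basement membrane collagen genes Col4a1 and Col4a2, the proteoglycan gene Dcn, the protease inhibitor gene Timp1, and the stellate cell genes Lrat, Des and Acta2. They were chosen by gene symbol and by a mean of at least 1 TPM (a transcript abundance corrected for length and scaled to a fixed total per library). All 10 reached that level, among 11284 genes of the 20821 symbols in the table. The product of Gclc catalyses the first step of glutathione synthesis. Gclc KO mice carried a floxed Gclc gene (f/f) and the tamoxifen-inducible recombinase Rosa26-CreERT2, which is expressed in all tissues, so the deletion was not limited to the liver or to one of its cell types. Gclc WT mice carried the same floxed Gclc gene without the recombinase. Mice of both genotypes received tamoxifen at 150 mg/kg by intraperitoneal injection for 5 days, and livers were taken 14 days later. No mice with CreERT2 and an intact Gclc gene are among the groups, so loss of Gclc and presence of the recombinase cannot be told apart. RNA from 4 mice per genotype was sequenced in 4 libraries per mouse, and the 4 values of a mouse were averaged.

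The extracellular matrix of the liver is thin. Type I and type III collagens form its fibrils, mostly around portal tracts and central veins, and type IV collagen lies in basement membranes and in the space between sinusoidal endothelial cells and hepatocytes. Hepatic stellate cells sit in that space and store vitamin A as retinyl esters, which they make with the enzyme encoded by Lrat. In injured livers stellate cells can become myofibroblasts, which contain smooth muscle actin, the product of Acta2, and secrete fibrillar collagens and the protease inhibitor TIMP1. Portal fibroblasts, vascular smooth muscle cells and mesothelial cells of the liver capsule express several of the same genes.

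Sequences at or before the start sites are shown for the 3 genes that changed and for the opposite-strand neighbour of one of them. The expression of these genes is compared below. Of the 10 genes, 8 matched the RefSeq table of promoters used here, and Col1a1 and Dcn did not. All coordinates are those of RefSeq on GRCm38.p6. Which build was used for the expression values is not stated in the sources at hand. Col4a1 and Col4a2 start on opposite strands of chromosome 8, with start sites at 11312826 and 11312805. The 2 lines below are the same 30 bases, chr8:11312801-11312830, read 5′ to 3′ on each gene's own strand. The capitals mark the 22 bases that run from one start site to the other. By these start sites the capitals lie downstream of both, so both transcripts include them and the lines hold little upstream sequence.
Col4a1 (minus strand): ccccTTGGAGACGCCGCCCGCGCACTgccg
Col4a2 (plus strand): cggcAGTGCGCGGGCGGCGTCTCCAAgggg
The window of Acta2 is the 250 bases before its start site, chr19:34255374-34255623 on the minus strand. Its capitals mark stretches of 10 bases that differ by 1 letter from a CArG box, the motif known to be bound by serum response factor in smooth muscle genes.
Acta2: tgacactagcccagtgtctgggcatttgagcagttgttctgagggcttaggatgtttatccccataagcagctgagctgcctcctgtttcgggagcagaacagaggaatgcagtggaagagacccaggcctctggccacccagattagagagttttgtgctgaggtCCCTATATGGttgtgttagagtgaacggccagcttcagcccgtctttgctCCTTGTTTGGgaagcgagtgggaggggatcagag
The window of Col3a1 is the 250 bases before its start site, chr1:45311288-45311537 on the plus strand, with the letters TATAAA in capitals.
Col3a1: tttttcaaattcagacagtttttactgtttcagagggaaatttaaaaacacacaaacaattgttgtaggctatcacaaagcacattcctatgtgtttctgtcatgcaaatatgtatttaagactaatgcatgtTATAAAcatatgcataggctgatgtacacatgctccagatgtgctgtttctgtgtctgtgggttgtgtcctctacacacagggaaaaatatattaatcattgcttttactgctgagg
Motifs were searched on both strands in 300 bases per gene, 250 before and 50 after the start site, in 32851 promoters of the table. TATAAA was found in 1 of the 8 windows (Col3a1) and in 13.6% of all promoters. GGGCGG was found in 6 of the 8 and in 35.7% of all promoters, and CCAAT in 5 of the 8 and in 37.4% of all. The windows of Col4a1 and Col4a2 overlap, and the GGGCGG of Col4a1 is also 1 of those of Col4a2. TGANTCA was found in none of the 8 and in 7.81% of all promoters, and TGACNNNGC in 2 of the 8 (Col4a2 and Des) and in 12.4% of all. An exact CArG box was found in none of the 8 and in 1.63% of all promoters. A form with at most 1 other letter, within the 6 inner bases, was searched after the windows had been seen. That form was found in 3 of the 8 (Col1a2, Lrat and Acta2) and, exact boxes included, in 9.98% of all promoters.

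Gclc itself had 26.9, 16.1, 18.6 and 26.8 TPM in Gclc KO livers 1 to 4, against 82.3, 114.1, 77.8 and 138 TPM in Gclc WT livers 1 to 4. Every Gclc KO liver was below every Gclc WT liver, and the log2 fold change was -2.17 (SE 0.23, adjusted p = 0.000612). Fold changes are differences of mean log2(TPM + 1), Gclc KO minus Gclc WT, which understates the change of genes near 1 TPM, and p-values are limma's, adjusted by Benjamini-Hochberg over all 11284 genes. A gene was called changed at an adjusted p under 0.05. Hepatocyte markers were abundant in all 8 livers, with a summed level of 103253 to 155848 TPM in Gclc KO and 79117 to 109738 TPM in Gclc WT. Of 19 markers of quiescent stellate cells, 16 reached 1 TPM, while the stellate cell marker Gfap was at 0.0775 to 0.56 TPM in Gclc KO and 0.168 to 0.405 TPM in Gclc WT. Of 15 markers of activated stellate cells and myofibroblasts, 13 reached 1 TPM. Some livers stood apart in markers of other cells. The 12 exocrine pancreas markers summed to 371 TPM in Gclc WT 1, against 6.86 to 18.9 TPM in Gclc KO livers and 14.5 to 37.3 TPM in the other Gclc WT livers. In Gclc WT 3 the markers of monocytes and neutrophils summed to 492 TPM and those of portal fibroblasts to 105 TPM, the highest of the 8 livers in both lists. Xist, which is transcribed from the inactive X chromosome of females, was at 1 TPM or more in Gclc KO 2, Gclc KO 3 and Gclc WT 3 and below 1 TPM in the other 5 mice. Ddx3y, a gene of the Y chromosome, was at 0 TPM in Gclc KO 2, Gclc KO 3 and Gclc WT 3 and at 22.6 to 32.7 TPM in the other 5 mice. The labels do not give the sex of the mice. By these 2 genes Gclc KO 2, Gclc KO 3 and Gclc WT 3 were female, so sex was not balanced between the genotypes. The RNA came from whole liver, in which fewer cells of a type and less RNA per cell cannot be told apart.

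Which matrix and stellate cell genes differed between Gclc KO and Gclc WT livers was asked first. Col4a1 was higher in Gclc KO livers, and Col3a1 and Acta2 were lower. Col1a1, Col1a2, Col4a2, Dcn, Timp1, Lrat and Des did not pass the test. Thus 1 of the 10 genes was called higher, where 12.8% of all genes tested were, and 2 were called lower, where 8.61% were. The genotypes did not overlap for 2 of the 10 genes (Col4a1 and Acta2), against 24.7% of all genes. The median log2 fold change of the 10 genes was -0.20, and that of all genes was 0.09. The balance of calls over all genes depended on scaling, with 1439 higher and 972 lower as deposited, against 1190 higher and 1476 lower after scaling by the trimmed mean of M values.

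**Figure D1:**
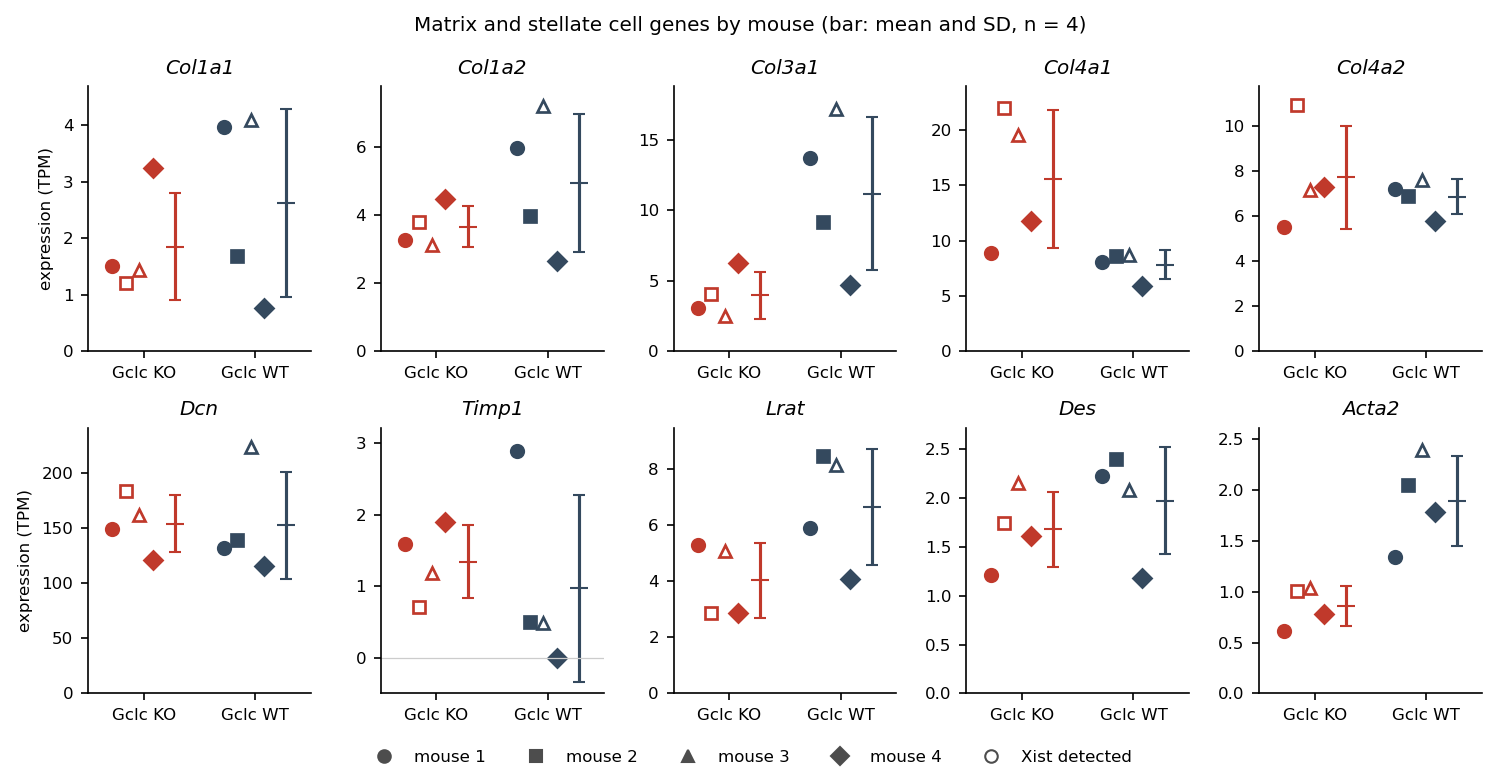
Expression of the 10 genes in TPM in each liver, Gclc KO in red and Gclc WT in dark blue. The mean and SD of 4 mice are a bar beside the points. Genotypes were compared without pairing by mouse number, and hollow points are the 3 mice with Xist at 1 TPM or more. Acta2 and Col4a1 separate the genotypes, with the Gclc KO livers below for Acta2 and above for Col4a1, and the Gclc WT values of Col1a1 and Col3a1 are spread widely.

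**Figure D2:**
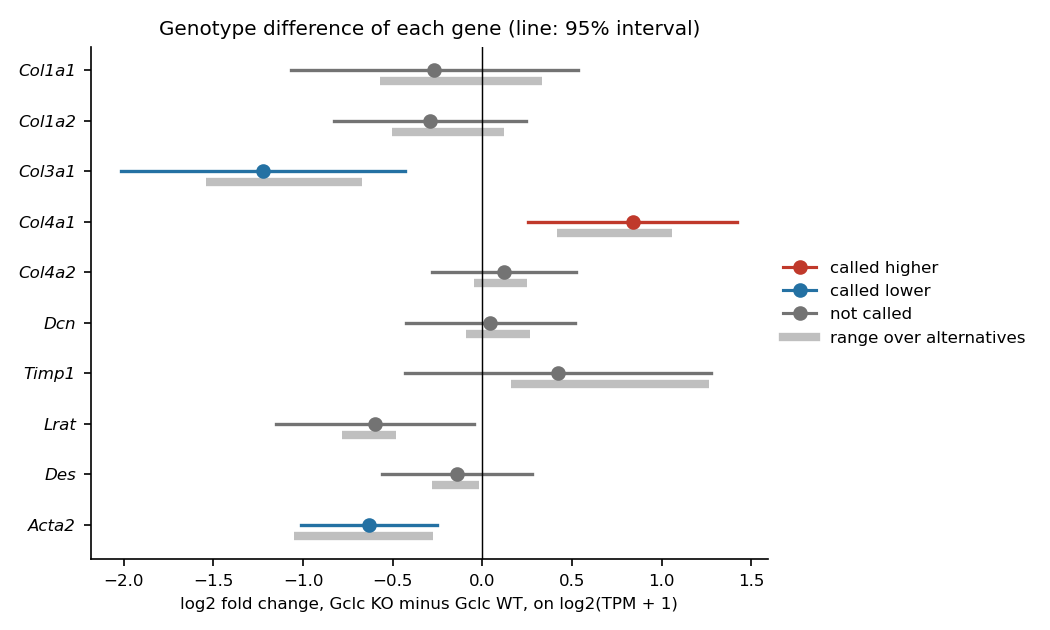
Log2 fold change of each gene, Gclc KO minus Gclc WT, on the log2(TPM + 1) scale, with its 95% interval as a line and, as a grey bar, the range of the estimate over the processing alternatives. The intervals of Col3a1, Acta2 and Lrat lie below 0 and that of Col4a1 above 0, but Lrat did not pass after adjustment over all genes.

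Col3a1, which encodes the chain of type III collagen, was the gene that differed most in size. Its level was 3.09, 4.09, 2.49 and 6.24 TPM in Gclc KO livers 1 to 4, against 13.7, 9.17, 17.2 and 4.72 TPM in Gclc WT livers 1 to 4. Gclc KO livers 1 to 3 were below all Gclc WT livers, whereas Gclc KO 4, the highest of its genotype, was above Gclc WT 4. The means were 3.98 ± 1.65 TPM in Gclc KO and 11.2 ± 5.42 TPM in Gclc WT (SD, n = 4 each), and the log2 fold change was -1.22 (SE 0.35, 95% interval -2.01 to -0.43, adjusted p = 0.0367). It was -1.25 in the libraries of batch 1 and -1.20 in those of batch 2, and both passed the test (adjusted p = 0.0401 and 0.044). The call was lost without any one of Gclc KO 1, Gclc KO 2, Gclc KO 3, Gclc WT 1, Gclc WT 2 or Gclc WT 3, with log2 fold changes of -1.27 to -0.99 and adjusted p-values of 0.0599 to 0.092. In the 5 mice without Xist the log2 fold change was -0.80 (adjusted p = 0.191).

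Col1a1 and Col1a2 encode the chains of type I collagen, the main collagen of scar tissue. Col1a1 had 1.5, 1.21, 1.44 and 3.25 TPM in Gclc KO livers 1 to 4, against 3.97, 1.69, 4.09 and 0.768 TPM in Gclc WT livers 1 to 4. The genotypes overlapped throughout: Gclc WT livers held both the highest and the lowest value. Its log2 fold change was -0.27 (95% interval -1.07 to 0.53, adjusted p = 0.627). Col1a2 had 3.28, 3.80, 3.12 and 4.46 TPM in Gclc KO livers 1 to 4, against 5.98, 3.97, 7.20 and 2.66 TPM in Gclc WT livers 1 to 4. Gclc WT 4 was lowest and Gclc WT 3 and Gclc WT 1 highest, and the Gclc KO livers lay between them. Its log2 fold change was -0.29 (95% interval -0.83 to 0.24, adjusted p = 0.41).

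The high livers were the same for these 3 collagens. Gclc WT 1 and Gclc WT 3 had the highest levels of Col1a1, Col1a2 and Col3a1 among all 8 livers. The same mice were highest for the summed mesothelial markers (6 of 7 in the table, 5 of them at 1 TPM or more), which came to 24.2 and 42.7 TPM in Gclc WT 1 and Gclc WT 3, against 7.74 and 4.85 TPM in Gclc WT 2 and Gclc WT 4. In Gclc KO livers that sum was 8.0 to 15.0 TPM. Msln, a surface protein of mesothelial cells, had 5.98, 3.77, 5.15 and 3.16 TPM in Gclc KO livers and 5.53, 1.20, 10.9 and 1.13 TPM in Gclc WT livers. Krt19, a keratin of bile ducts and mesothelium, had 4.21, 3.97, 3.12 and 3.25 TPM in Gclc KO livers and 10.4, 1.38, 18.9 and 1.15 TPM in Gclc WT livers. Both genes were thus lowest in Gclc WT 2 and Gclc WT 4. The list of 8 bile duct markers that holds Krt19 did not follow it. It summed to 40.4, 75.4, 79.4 and 44.6 TPM in Gclc KO livers 1 to 4, against 65.5, 44.0, 93.7 and 26.6 TPM in Gclc WT livers 1 to 4. Of its 5 genes tested, 1 was called higher and 0 lower, where 12.8% and 8.61% of all genes were. No mesothelial marker passed the test of genotype, and the part of these cells in the collagen values was not tested. Neither was that of the pancreas markers in Gclc WT 1 or of the portal fibroblast, monocyte and neutrophil markers in Gclc WT 3. Without Gclc WT 1 and Gclc WT 3, a choice made after the data were seen, the log2 fold change was -0.67 for Col3a1 (adjusted p = 0.187), 0.34 for Col1a1 (adjusted p = 0.483) and 0.12 for Col1a2 (adjusted p = 0.703).

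**Figure D3:**
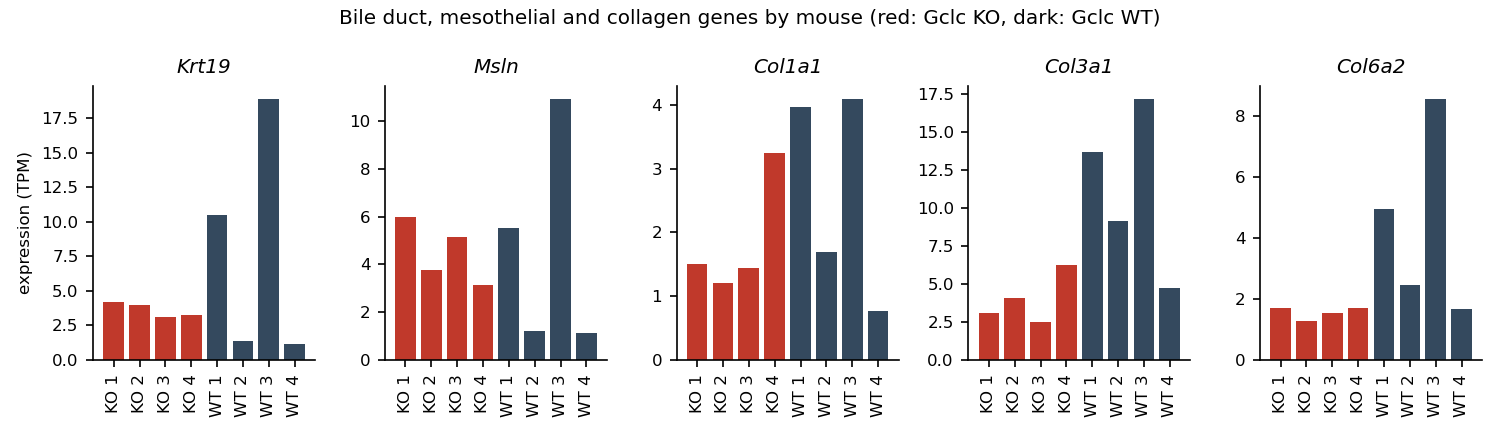
Expression in TPM of Krt19 (bile duct and mesothelium), Msln (mesothelium) and 3 collagen genes, one bar per liver, with Gclc KO 1 to 4 in red on the left and Gclc WT 1 to 4 dark on the right. Krt19 was at 10.4 and 18.9 TPM in Gclc WT 1 and Gclc WT 3, and Col1a1, Col3a1 and Col6a2 were highest in the same 2 livers. The summed bile duct markers, not drawn, were higher in Gclc KO 2 and Gclc KO 3 than in Gclc WT 1.

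Col4a1 and Col4a2 encode the chains that join, as 2 of the first and 1 of the second, into the common type IV collagen of basement membranes. Col4a1 had 8.92, 22.04, 19.6 and 11.8 TPM in Gclc KO livers 1 to 4, against 8.07, 8.61, 8.74 and 5.90 TPM in Gclc WT livers 1 to 4. All Gclc KO livers were above all Gclc WT livers, although Gclc KO 1 exceeded the highest Gclc WT liver only slightly. The means were 15.6 ± 6.24 TPM in Gclc KO and 7.83 ± 1.32 TPM in Gclc WT (SD, n = 4 each), and the log2 fold change was 0.84 (SE 0.26, 95% interval 0.26 to 1.42, adjusted p = 0.0461). Col4a2 had 5.51, 10.9, 7.16 and 7.31 TPM in Gclc KO livers 1 to 4, against 7.19, 6.89, 7.62 and 5.78 TPM in Gclc WT livers 1 to 4. Apart from Gclc KO 2, no Gclc KO liver was above the highest Gclc WT liver. The log2 fold change of Col4a2 was 0.12 (95% interval -0.28 to 0.52, adjusted p = 0.666).

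The call for Col4a1 was close to the threshold. It was lost without any one of Gclc KO 2, Gclc KO 3, Gclc KO 4, Gclc WT 1, Gclc WT 2 or Gclc WT 4, with log2 fold changes of 0.65 to 0.94 and adjusted p-values of 0.0597 to 0.119, and also with libraries rescaled by the trimmed mean of M values (0.75, adjusted p = 0.0831) or by the median of ratios (0.76, adjusted p = 0.0792). The value was 0.90 in batch 1 (adjusted p = 0.0276) and 0.78 in batch 2 (adjusted p = 0.0923). The 2 highest Gclc KO livers, Gclc KO 2 and Gclc KO 3, were those with Xist. In the 5 mice without Xist the log2 fold change was 0.42 (adjusted p = 0.168). In mice with Xist the genotype difference was larger by 0.75 on the log2 scale. That comparison was chosen after the data were seen and rests on a single Gclc WT mouse with Xist. Whether the difference depends on Xist therefore cannot be told. Markers of sinusoidal endothelial cells, which also make type IV collagen, summed to 147 to 257 TPM in Gclc KO and 171 to 263 TPM in Gclc WT, and of their 12 genes 1 was called higher (Lyve1) and 1 lower (Kdr).

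Because TPM are corrected for transcript length, chains can be compared within a liver. The ratio of Col4a1 to Col4a2 was 1.62, 2.01, 2.74 and 1.61 in Gclc KO livers 1 to 4, against 1.12, 1.25, 1.15 and 1.02 in Gclc WT livers 1 to 4. Col4a1 exceeded Col4a2 in all 8 livers, and the ratio was higher in every Gclc KO liver than in any Gclc WT liver, although the genes share their start region. The log2 ratio differed by 0.78 (SE 0.19, two-sided exact permutation test over the 70 ways to divide the mice, p = 0.0286, which is the smallest p the design allows, and 0.0429 after adjustment over the 3 ratios tested). Col1a1 relative to Col3a1 was 0.485, 0.294, 0.579 and 0.520 in Gclc KO livers 1 to 4, against 0.289, 0.184, 0.238 and 0.163 in Gclc WT livers 1 to 4. Here too the genotypes did not overlap, with Gclc KO 2 only just above Gclc WT 1, and the log2 ratio differed by 1.096 (SE 0.29, exact permutation p = 0.0286, adjusted p = 0.0429). These 2 genes encode chains of different collagens, and Col1a1 was low, at 0.768 to 4.09 TPM. Both differences use the values tested above, so they are no separate evidence for the calls of Col4a1 and Col3a1. Col1a1 relative to Col1a2 was 0.457, 0.317, 0.462 and 0.728 in Gclc KO livers 1 to 4, against 0.663, 0.424, 0.569 and 0.289 in Gclc WT livers 1 to 4. Those values overlapped fully, with a log2 difference of 0.02 (SE 0.36, exact permutation p = 1). Within the libraries of batch 1 the first 2 differences were 0.90 and 1.02, with adjusted p-values of 0.0857 each. The adjusted p of both was also 0.0857 without Gclc KO 3 or any one Gclc WT liver, with differences of 0.62 to 0.83 for Col4a1 to Col4a2 and 0.97 to 1.24 for Col1a1 to Col3a1, and no liver reversed either.

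**Figure D4:**
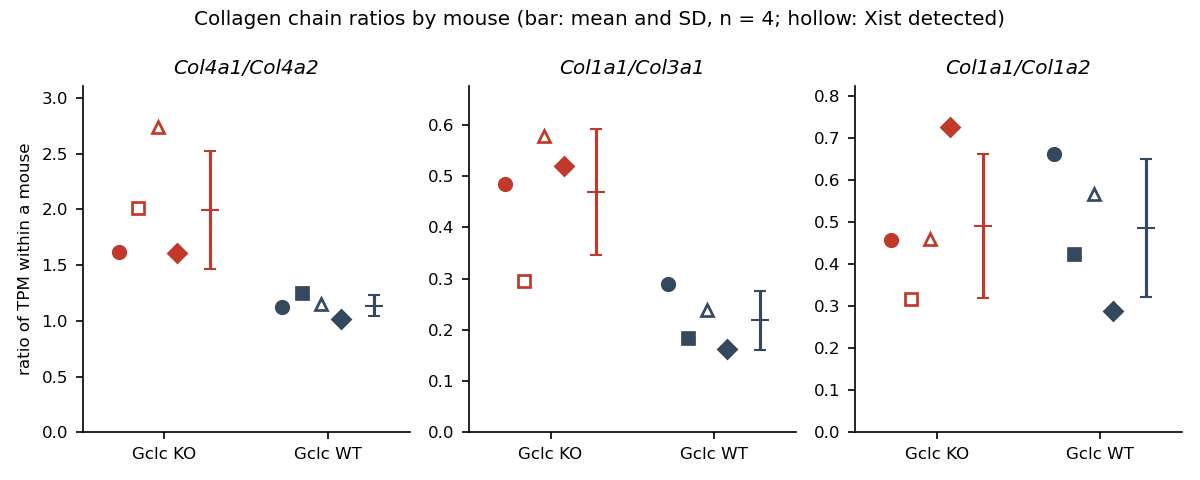
Ratio of TPM between pairs of collagen genes in each liver, Gclc KO in red and Gclc WT in dark blue, with the mean and SD of 4 mice as a bar and hollow points for mice with Xist. Ratios of Col4a1 to Col4a2 and of Col1a1 to Col3a1 are higher in all Gclc KO livers, whereas those of Col1a1 to Col1a2 overlap.

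Dcn encodes decorin, a small proteoglycan that binds collagen fibrils and is made by stellate cells and fibroblasts. It was the most abundant of the 10 genes, with 149, 184, 162 and 121 TPM in Gclc KO livers 1 to 4 and 132, 139, 224 and 116 TPM in Gclc WT livers 1 to 4. The lowest and the highest value were both in Gclc WT livers. The log2 fold change was 0.05 (95% interval -0.43 to 0.52, adjusted p = 0.896). Timp1, an inhibitor of matrix metalloproteinases, was the least abundant, with 1.59, 0.708, 1.19 and 1.89 TPM in Gclc KO livers 1 to 4 and 2.89, 0.498, 0.49 and 0 TPM in Gclc WT livers 1 to 4. Gclc WT 1, the liver with the high exocrine pancreas markers, was highest, and the other Gclc WT livers were below all Gclc KO livers. Without Gclc WT 1 the gene averaged under 1 TPM and was not tested, and the part of the pancreas markers was not tested. It was listed at 0 in 11 of the 32 libraries, and its log2 fold change was 0.42 (95% interval -0.43 to 1.28, adjusted p = 0.458).

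Acta2, the actin of smooth muscle cells and myofibroblasts, was the stellate cell gene whose genotypes did not overlap. It had 0.615, 1.01, 1.04 and 0.785 TPM in Gclc KO livers 1 to 4, against 1.35, 2.05, 2.40 and 1.78 TPM in Gclc WT livers 1 to 4. Every Gclc KO liver was below every Gclc WT liver, and all levels were low. The means were 0.860 ± 0.198 TPM in Gclc KO and 1.89 ± 0.444 TPM in Gclc WT (SD, n = 4 each), and the log2 fold change was -0.63 (SE 0.17, 95% interval -1.01 to -0.25, adjusted p = 0.0285). The difference was -0.27 in batch 1 (adjusted p = 0.38) and -1.02 in batch 2 (adjusted p = 0.0173). At this level single libraries varied widely: the SD of log2(TPM + 1) was 0.47 among libraries of a mouse. Among mouse averages of 4 libraries it was 0.16 in Gclc KO and 0.23 in Gclc WT. Averaging narrows the spread, so these SDs are not like for like. Of the 32 libraries, 3 listed Acta2 at 0. The call was lost without any one of Gclc KO 1, Gclc KO 4, Gclc WT 2 or Gclc WT 4, with log2 fold changes of -0.64 to -0.56 and adjusted p-values of 0.0606 to 0.082, and in the 5 mice without Xist (-0.67, adjusted p = 0.0591). Actin genes share coding sequence, and how shared reads were assigned is not stated in the sources at hand.

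Lrat makes the retinyl esters that quiescent stellate cells store. It had 5.31, 2.88, 5.09 and 2.89 TPM in Gclc KO livers 1 to 4, against 5.92, 8.47, 8.17 and 4.08 TPM in Gclc WT livers 1 to 4. Gclc WT 4 fell between the Gclc KO livers, and the other Gclc WT livers were above all of them. The log2 fold change was -0.60 (95% interval -1.15 to -0.05), which did not pass after adjustment over all genes (adjusted p = 0.11). Des encodes desmin, an intermediate filament protein of stellate and muscle cells, and had 1.22, 1.74, 2.15 and 1.61 TPM in Gclc KO livers 1 to 4 and 2.23, 2.40, 2.09 and 1.18 TPM in Gclc WT livers 1 to 4. Gclc WT livers held the lowest and the highest value of Des, and its log2 fold change was -0.14 (95% interval -0.56 to 0.28, adjusted p = 0.625).

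Marker lists of the cells that express these genes were counted beside them, against 12.8% called higher and 8.61% called lower among all genes (1476 of 11284 genes lower after scaling by the trimmed mean of M values). With so few genes per list, nothing particular to a list is read from these counts. Of the 16 quiescent stellate cell markers tested, 3 were called lower and 0 higher: Reln (3.27 TPM in Gclc KO and 6.25 TPM in Gclc WT on average, adjusted p = 0.00876), the lectin gene Colec11 (14.7 TPM in Gclc KO and 35.1 TPM in Gclc WT, adjusted p = 0.00464) and Ecm1. Their summed level was 267 to 365 TPM in Gclc KO and 322 to 558 TPM in Gclc WT. Of the 13 markers of activated stellate cells and myofibroblasts tested, 6 of which belong to the 10 genes, 4 were called lower and 0 higher: Acta2, Col3a1, Postn and the tropomyosin gene Tpm2. That list summed to 62.4 to 104 TPM in Gclc KO and 58.5 to 162 TPM in Gclc WT, so the ranges overlapped. Tagln, an actin-binding protein of smooth muscle and myofibroblasts, was at 5.35, 5.01, 4.87 and 3.80 TPM in Gclc KO livers and 5.17, 4.87, 4.92 and 5.09 TPM in Gclc WT livers (adjusted p = 0.712). Of 3 vascular smooth muscle markers tested, 1 was called lower (Mylk), with sums of 15.4 to 18.4 TPM in Gclc KO and 20.4 to 24.8 TPM in Gclc WT, and Cnn1 was at 0 to 0.0825 TPM in Gclc KO and 0 to 0.14 TPM in Gclc WT. Of 5 portal fibroblast markers tested, none was called, with sums of 21.0 to 47.6 TPM in Gclc KO and 20.8 to 105 TPM in Gclc WT. Of 11 Kupffer cell markers 5 were called higher, 0 lower and 6 were not called, and the list summed to 877 to 1466 TPM in Gclc KO and 316 to 851 TPM in Gclc WT. Their part in the levels of the matrix genes was not tested.

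Other genes of the matrix and of stellate cell signalling were taken from 10 lists. Of the listed genes that averaged 1 TPM or more, 17 (13.7%) were called higher, 10 (8.06%) were called lower and 97 were not called, where 12.8% and 8.61% of all genes were called higher and lower. The median log2 fold change of these genes was 0.08. With so few genes per list, nothing particular to a list is read from the counts given here and below. Fibrillar and associated collagens, the partners of type I and III collagen, had 0 higher and 3 lower of 8. The collagen V chain gene Col5a3 had 0.510, 0.610, 0.657 and 0.955 TPM in Gclc KO livers, against 2.12, 2.64, 1.46 and 3.17 TPM in Gclc WT livers (log2 fold change -0.97, SE 0.19, adjusted p = 0.0088). Col14a1, a collagen on the surface of fibrils, had 7.31, 7.81, 3.02 and 2.56 TPM in Gclc KO livers, against 10.4, 13.5, 17.9 and 11.2 TPM in Gclc WT livers (-1.30, SE 0.31, adjusted p = 0.0191). For both genes every Gclc KO liver was below every Gclc WT liver. Both were named for a small adjusted p, and 24.7% of all genes did not overlap in either direction. Postn, which encodes the matricellular protein periostin, averaged 2.23 ± 0.772 TPM in Gclc KO and 5.66 ± 2.63 TPM in Gclc WT (SD, n = 4 each; adjusted p = 0.0307). Fn1, the fibronectin gene, which hepatocytes express strongly, had 575, 639, 423 and 466 TPM in Gclc KO livers and 307, 297, 535 and 269 TPM in Gclc WT livers, and did not pass (adjusted p = 0.0851). Col5a3 passed under all 22 alternatives. The call of Col14a1 was lost without Gclc KO 3 or Gclc WT 2 (adjusted p = 0.0508 and 0.0533), and that of Postn without Gclc KO 1, Gclc KO 3, Gclc KO 4, Gclc WT 2 or Gclc WT 4 (adjusted p = 0.0653 to 0.0774).

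**Figure D5:**
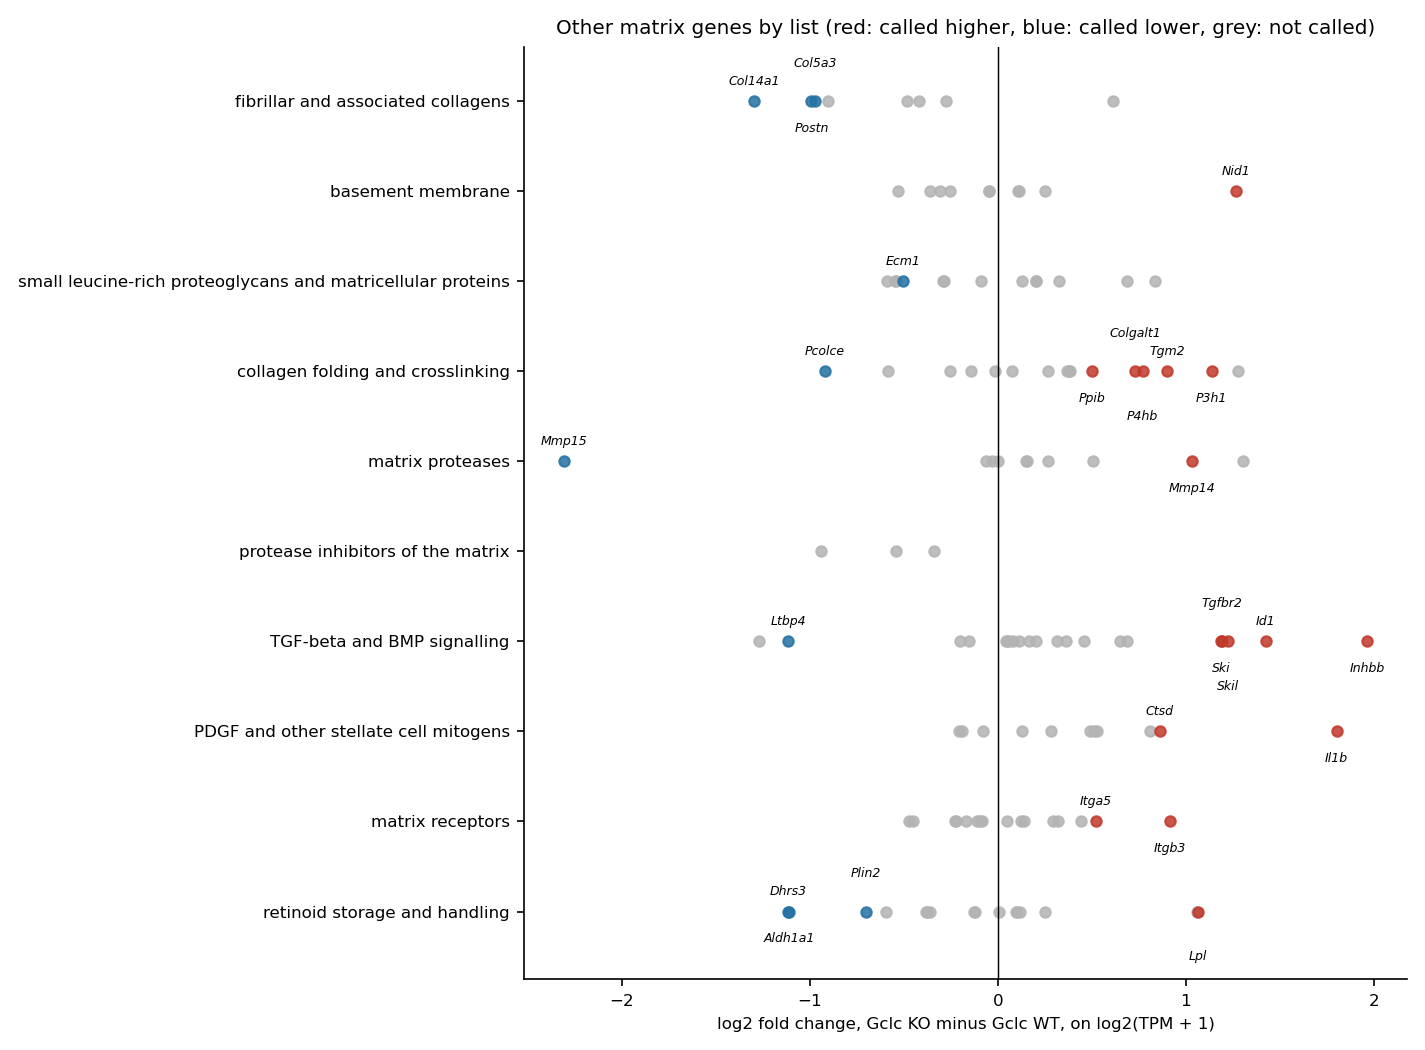
Log2 fold change of the other genes tested, Gclc KO minus Gclc WT, on the log2(TPM + 1) scale, one row per list and one point per gene, with the called genes named. Called collagens and periostin lie to the left, whereas the called genes of the mitogen and matrix receptor lists lie to the right.

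Among basement membrane genes 1 of 10 was called higher and 0 lower, where 12.8% and 8.61% of all genes were. Nid1 encodes nidogen, which links laminin to type IV collagen, and had 5.60, 16.0, 21.6 and 11.2 TPM in Gclc KO livers, against 4.55, 4.18, 6.39 and 3.35 TPM in Gclc WT livers (log2 fold change 1.27, SE 0.34, adjusted p = 0.0285). As for Col4a1, Gclc KO 2 and Gclc KO 3 were highest and Gclc KO 1 was lowest among the Gclc KO livers. The genotypes overlapped, since Gclc KO 1 was below Gclc WT 3. Without any one of Gclc KO 2, Gclc KO 3, Gclc KO 4, Gclc WT 1, Gclc WT 2 or Gclc WT 4 the adjusted p of Nid1 was 0.057 to 0.077. In the 5 mice without Xist its log2 fold change was 0.84 (adjusted p = 0.0596). The genes for SPARC (Sparc), a laminin chain (Lamb1) and perlecan (Hspg2) had log2 fold changes of -0.53, -0.36 and -0.31 and did not pass. Proteoglycans and matricellular proteins had 0 higher and 1 lower of 13. The lower gene was Ecm1, which averaged 60.5 ± 5.08 TPM in Gclc KO and 87.4 ± 18.3 TPM in Gclc WT (SD, n = 4 each; log2 fold change -0.51, adjusted p = 0.0392). Without Gclc KO 1, Gclc KO 3, Gclc KO 4, Gclc WT 2, Gclc WT 3 or Gclc WT 4 its adjusted p was 0.0552 to 0.0927.

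Genes that modify, fold or crosslink collagen had 5 higher and 1 lower of 16, where 12.8% and 8.61% of all genes were called higher and lower. P3h1, a prolyl hydroxylase of collagen, had 14.1, 13.4, 10.3 and 19.2 TPM in Gclc KO livers, against 6.51, 5.00, 7.68 and 4.42 TPM in Gclc WT livers (log2 fold change 1.14, SE 0.20, adjusted p = 0.00546). Colgalt1, which adds galactose to collagen, averaged 56.1 ± 4.59 TPM in Gclc KO and 33.5 ± 4.19 TPM in Gclc WT (adjusted p = 0.00348). P4hb, a protein disulfide isomerase that is also the beta subunit of collagen prolyl 4-hydroxylase, rose by 0.77 and Ppib, a peptidyl-prolyl isomerase, by 0.50 on the log2 scale (adjusted p = 0.00546 and 0.0149). In all 4 genes every Gclc KO liver was above every Gclc WT liver. They were named for the smallest adjusted p of their list, and 24.7% of all genes did not overlap in either direction. P4hb and Ppib act on many secreted proteins besides collagen. The call of Ppib was lost without Gclc WT 2 (adjusted p = 0.0571), and those of the other 3 were kept under all 23 alternatives. The transglutaminase gene Tgm2 was the other gene called higher, and Pcolce, which enhances the removal of the procollagen C-terminal propeptide, was the one called lower (4.03 TPM in Gclc KO and 9.06 TPM in Gclc WT, adjusted p = 0.0339).

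Genes of matrix turnover had calls in both directions. Of 10 matrix proteases 1 was higher and 1 lower, near the 12.8% and 8.61% of all genes. Mmp15, a membrane-type metalloproteinase, had 3.68, 1.81, 2.30 and 4.78 TPM in Gclc KO livers, against 17.4, 25.8, 14.7 and 18.4 TPM in Gclc WT livers (log2 fold change -2.30, SE 0.24, adjusted p = 0.000645). Mmp14, another membrane-type metalloproteinase, had 28.5, 49.97, 27.3 and 26.5 TPM in Gclc KO livers, against 11.4, 12.6, 24.9 and 14.2 TPM in Gclc WT livers (1.03, SE 0.27, adjusted p = 0.0241). Neither gene overlapped between genotypes, but both were named for a small adjusted p, and 24.7% of all genes did not overlap. The call of Mmp14 was lost without Gclc WT 1, Gclc WT 2 or Gclc WT 4 (adjusted p = 0.0598 to 0.0713). The inhibitor genes Timp3 and Timp2, relatives of Timp1, had log2 fold changes of -0.54 and -0.34 and did not pass (adjusted p = 0.0692 and 0.317).

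Signals that act on stellate cells were counted by ligand, receptor and regulator. Over all genes 12.8% were called higher and 8.61% lower. TGF-beta and BMP signalling had 5 higher and 1 lower of 21. Tgfbr2, the type II receptor of TGF-beta, had 36.7, 30.6, 33.6 and 52.5 TPM in Gclc KO livers, against 15.5, 19.5, 16.0 and 13.2 TPM in Gclc WT livers (log2 fold change 1.19, SE 0.18, adjusted p = 0.0027). Ski and Skil, which encode repressors of SMAD transcription factors, rose by 1.19 and 1.23 on the log2 scale (adjusted p = 0.00129 and 0.0067). Ltbp4, which binds latent TGF-beta in the matrix, fell by 1.12 (adjusted p = 0.00183). All 4 kept their calls under every alternative run. Inhbb, an activin subunit, and Id1, a BMP target, were the other genes called higher (adjusted p = 0.0104 and 0.0291). The list held a receptor, repressors and a ligand subunit among the higher genes and a binding protein as the lower one. No direction of the pathway is read from these calls. Of 11 PDGF and other mitogen genes 2 were higher and 0 lower: the cytokine gene Il1b (5.79 ± 3.12 TPM in Gclc KO and 0.868 ± 0.622 TPM in Gclc WT, adjusted p = 0.00731) and the lysosomal protease gene Ctsd (adjusted p = 0.00628). Of 16 matrix receptors 2 were higher and 0 lower, both integrin chains: Itgb3 (adjusted p = 0.0281), whose adjusted p was 0.0629 to 0.0776 without Gclc KO 3, Gclc KO 4, Gclc WT 1, Gclc WT 2 or Gclc WT 4, and Itga5 (adjusted p = 0.0383), whose adjusted p was 0.0625 to 0.0985 without any one mouse other than Gclc WT 3.

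Genes of retinoid storage and handling, the pathway of Lrat, had 1 higher and 3 lower of 16, where 12.8% and 8.61% of all genes were. Dhrs3, which reduces retinal to retinol, had 54.2, 55.0, 45.8 and 53.6 TPM in Gclc KO livers, against 105, 108, 118 and 125 TPM in Gclc WT livers (log2 fold change -1.11, SE 0.11, adjusted p = 0.000464). Plin2, a lipid droplet protein, averaged 127 ± 16.4 TPM in Gclc KO and 208 ± 35.4 TPM in Gclc WT (-0.70, adjusted p = 0.0134). Aldh1a1, which oxidises retinal, had 852, 455, 289 and 698 TPM in Gclc KO livers, against 1373, 1188, 851 and 1229 TPM in Gclc WT livers (-1.11, adjusted p = 0.0349). Of the last gene, Gclc KO 1 was just above Gclc WT 3, and the adjusted p was 0.0617 to 0.0856 without Gclc KO 2, Gclc KO 3, Gclc WT 1, Gclc WT 2 or Gclc WT 4. Lpl, lipoprotein lipase, was the gene called higher (17.3 ± 5.05 TPM in Gclc KO and 7.86 ± 2.64 TPM in Gclc WT, adjusted p = 0.0211), and its adjusted p was 0.0533 to 0.0561 without Gclc KO 1, Gclc KO 3 or Gclc WT 2. In the 5 mice without Xist the adjusted p of Lpl was 0.0644. These 4 genes are also expressed by cells other than stellate cells, hepatocytes among them.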

How the data were processed

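Whole-liver RNA of 4 Gclc KO and 4 Gclc WT mice was measured in 32 libraries. Per the labels, PureLink-purified RNA went into stranded Kapa mRNA libraries, and the submitters' processing notes name bcl2fastq 2.2. The authors deposited TPM per gene and library, in a table named as normalized counts. The values were taken as TPM because each library summed to between 999315 and 999534. How reads were aligned and quantified, and on which build and annotation, is not stated in the sources at hand. TPM keep no depth, so depth is unknown and no counting interval is given. Of 20896 rows, 75 repeated a symbol and were left out. What the batch and run numbers of the libraries stand for is not given, so the 4 libraries of a mouse were averaged as technical repeats.

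The 11284 genes averaging 1 TPM or more across the mice were compared on log2(TPM + 1) with limma 3.58.1 (R 4.3.3; empirical Bayes with a trend, two-sided, no covariate), at a Benjamini-Hochberg adjusted p of 0.05. The fit was tested on simulated data. Ratios of chains were compared by an exact permutation test over mice. Named genes were Gclc, the 10 genes, up to 4 genes per wider list with the smallest adjusted p, and abundant markers. Named outside that rule, after their values were seen, were Xist, Ddx3y, Col6a2, Tgm2, Pcolce, Inhbb, Id1, Gfap, Cnn1, Reln, Tpm2, Kdr and Lyve1. A gene of the wider lists is not reported here and was left out of their counts. The members and lists were chosen with earlier results of these data known. Alternatives varied the pseudocount (0.1 and 0.5), the filter (none, or 10 TPM), the scaling, the fit, covariates, batches and mice.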

Additional observations from a re-analysis of the deposited data

Results flagged for a closer look

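Dixon's test singled out a mouse within its genotype in 4 of 106 tests (3.77%), where chance gives about 5%. On the log2(TPM + 1) scale, Gclc KO 2 was the highest Gclc KO liver for Postn, at 2.13 against 1.47 to 1.57 in the other Gclc KO livers. Gclc KO 2 was also the highest for the metalloproteinase gene Mmp14, at 5.67 against 4.78 to 4.88, and for the integrin gene Itga5, at 3.30 against 2.94 to 2.96. Gclc KO 3 was the lowest Gclc KO liver for the retinal reductase gene Dhrs3, at 5.55 against 5.77 to 5.81.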

How the results depend on the processing

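The directions of Gclc, Col3a1, Col4a1, Acta2, Lrat, Des and Timp1 were the same under every alternative run. Log2 fold changes ranged from -1.54 to -0.67 for Col3a1 (called in 11 of 22 alternatives), from 0.42 to 1.06 for Col4a1 (10 of 23) and from -1.05 to -0.27 for Acta2 (16 of 22), and none of the other 7 genes was called in any. Col4a1 was not called, so that 0 of the 10 genes were called higher, with no filter, after scaling by the trimmed mean of M values or by the median of ratios, with the mouse tag as covariate, in the mice without Xist, in batch 2 alone, or without Gclc WT 1 and Gclc WT 3. Called lower were 0 genes at 10 TPM (where Col3a1 and Acta2 are not tested) or in the mice without Xist, and 1 gene with no filter, the mouse tag covariate, batch 1 alone, or without Gclc WT 1 and Gclc WT 3. With the replicate block 1 gene was called higher and 1 lower, and 1341 and 874 of all genes. The adjusted p was then 0.0259 for Col4a1 and 0.0733 for Col3a1. Deviations from the genotype mean correlated at r = 0.345 and 0.26 for same-numbered mice 3 and 4. Those were the highest values for any Gclc KO and Gclc WT mouse. For mice 1 and 2 the values were 0.0623 and -0.12. Same-numbered mice carried close mouse tags, but the labels do not say whether they were paired. Correlations over 4 mice per genotype cannot decide it.

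Leaving out 1 mouse at a time gave 0 to 1 gene higher and 0 to 1 lower among the 10, 9 to 26 and 6 to 11 in the wider lists, and 700 to 1855 and 556 to 950 among all genes. At 10 TPM 11 genes of the wider lists were called higher and 6 lower, since fewer were tested. Scaling changed the balance over all genes, to 1190 higher and 1476 lower (trimmed mean of M values) or 1242 and 1413 (median of ratios), against 1439 and 972 as deposited. The median of all genes was 0.09 as deposited and 0.17 in the mice without Xist, and scaling by the trimmed mean of M values or the median of ratios moved it by less than 0.1. The cause of these shifts was not tested.

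Genes near 0 changed sign. Dcn was at -0.059 with trimmed mean of M values, -0.045 with median of ratios, -0.090 with Xist as covariate, and -0.072 to 0.24 without single mice (below 0 without Gclc KO 2, Gclc WT 1 or Gclc WT 4). Col4a2 was at -0.047 in the mice without Xist and at -0.043 to 0.25 without single mice (below 0 without Gclc KO 2), Col1a1 at 0.18 in the mice without Xist and 0.34 without Gclc WT 1 and Gclc WT 3, and Col1a2 at 0.12 without both. The ratio of Col1a1 to Col1a2 differed by -0.19 in batch 1 alone and by -0.21 to 0.21 without single mice. The ratios of Col4a1 to Col4a2 and of Col1a1 to Col3a1 differed by 0.90 and 1.02 in batch 1 alone, and by 0.62 to 0.87 and 0.97 to 1.31 without single mice. Their adjusted p was 0.0857 in batch 1 alone and without Gclc KO 3 or any one Gclc WT mouse, and 0.0429 in batch 2 alone and without Gclc KO 1, Gclc KO 2 or Gclc KO 4.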
